A study of Homo sapiens with 4 samples.

Results

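H3K4me3, the trimethylation of histone H3 at lysine 4 that marks active promoters, was examined in 5 tracts of olfactory receptor genes, which serve as a measure of background in a breast cancer cell line. In hg19 the tracts run on chromosome 11 from 4380000 to 6230000 (band 11p15) and from 55000000 to 56600000 (11q11-q12), on chromosome 1 from 247600000 to 248850000 (1q44), on chromosome 14 from 20200000 to 20720000 (14q11) and on chromosome 9 from 125230000 to 125570000 (9q33), 5.56 Mb in all. Every peak that shared at least 1 bp with them was taken. These were 13 of the 23588 peaks listed for ARID1A knockout cells and 27 of the 36677 peaks listed for control cells, 40 of 60265 together, and each of the 40 lay wholly inside its stretch. The cells are MDA-MB-231, an established triple-negative breast cancer line, and ARID1A belongs to SWI/SNF, a chromatin remodelling complex. For each genotype 1 H3K4me3 immunoprecipitate was compared by the authors with 1 input, and the labels do not say whether the knockout is a single clone. The cell line names of 3 of the 4 libraries end in other numbers, the inputs carry IgG as their antibody label, and the knockout peak file names its library K6. The knockout immunoprecipitate held 13391724 tags and the control one 27748061. With 1 library per genotype no difference between the genotypes was tested, and the intervals given cover counting error only. The ARID1A locus was not analysed here.

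Olfactory receptors are the odour-sensing receptors of nasal neurons, and their genes form the largest family in the human genome, laid out in long tandem arrays. Each olfactory neuron expresses a single receptor allele, and in other tissues the arrays are held silent in heterochromatin. H3K4me3 is placed around the start sites of active genes, above all at promoters rich in CpG pairs. The tracts are not made of receptors alone. The globin genes and several TRIM genes, which encode ubiquitin ligases with antiviral members, lie within the 11p15 tract, and TRIM58 and the inflammasome gene NLRP3 lie within or beside the 1q44 tract. No RNA was measured here, and the peaks were not assigned to genes, because no annotation in hg19 coordinates was used. That the receptors are silent is therefore background and not a result of these data.

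The promoters of the receptors were poor in CpG. The RefSeq promoter table (GRCh38.p14, 250 bases before to 50 after each gene start) held 228 olfactory receptor genes of chromosomes 1, 9, 11 and 14, some of them outside the 5 tracts. Their promoters had a median of 1 CpG pair (quartiles 1 and 2) and a median GC content of 37%, against 14 CpG pairs (quartiles 4 and 28) and 58.7% over all 35116 promoters of the table. At least 10 CpG pairs were present in 2 of the 228 (0.877%), against 56.4% of all promoters, and none in 52 (22.8%), against 3.96%. Of 19 genes listed for this report that lie in or beside the tracts and are not receptors, 13 were matched in the table. At least 10 CpG pairs were present in 3 of these 13, PDCL, a phosducin-like protein gene, with 21, TRIM58 with 20 and TRIM68 with 15. The other 10 had fewer than 10 pairs, though some lay above the upper quartile of the receptors and within the quartiles of all promoters. TRIM6 had 8 pairs, TRIM5, a restriction factor against retroviruses, had 6, NLRP3 had 5, and MMP26, a metalloprotease gene, had 0. To show the range of the receptors in letters, their promoters with the lowest, the median and the highest count are given on the + strand, with each CpG pair in capitals. They are OR10A4 with 0 pairs (chr11:6876375-6876674, the first by name of 52 with none), OR5AK2 with 1 pair (chr11:56988664-56988963, among 86 with this count) and OR2L13 with 24 pairs (chr1:247936927-247937226), all in GRCh38.p14. They were taken from all 228 genes, and their place relative to the hg19 tracts and peaks was not determined. Read across builds as they stand, the coordinates of OR10A4 and OR5AK2 lie past the ends of the 11p15 and 11q11-q12 tracts.
OR10A4: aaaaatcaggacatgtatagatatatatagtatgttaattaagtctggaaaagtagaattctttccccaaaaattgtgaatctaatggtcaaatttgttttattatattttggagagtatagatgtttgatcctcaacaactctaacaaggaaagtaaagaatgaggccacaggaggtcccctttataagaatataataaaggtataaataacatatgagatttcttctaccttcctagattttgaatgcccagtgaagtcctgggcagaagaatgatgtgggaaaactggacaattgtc
OR5AK2: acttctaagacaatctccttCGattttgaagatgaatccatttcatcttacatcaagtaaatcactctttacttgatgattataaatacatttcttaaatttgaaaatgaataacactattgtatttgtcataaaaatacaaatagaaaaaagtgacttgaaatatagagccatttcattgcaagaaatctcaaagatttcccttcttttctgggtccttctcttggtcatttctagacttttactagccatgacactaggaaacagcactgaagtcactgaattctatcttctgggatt
OR2L13: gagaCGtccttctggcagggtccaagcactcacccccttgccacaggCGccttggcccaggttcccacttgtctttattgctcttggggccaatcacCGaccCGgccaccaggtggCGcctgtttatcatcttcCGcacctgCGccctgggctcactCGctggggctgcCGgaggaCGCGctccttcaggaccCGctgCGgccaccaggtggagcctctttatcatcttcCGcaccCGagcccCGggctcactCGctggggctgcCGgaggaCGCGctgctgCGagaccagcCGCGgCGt

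**Figure D1:**
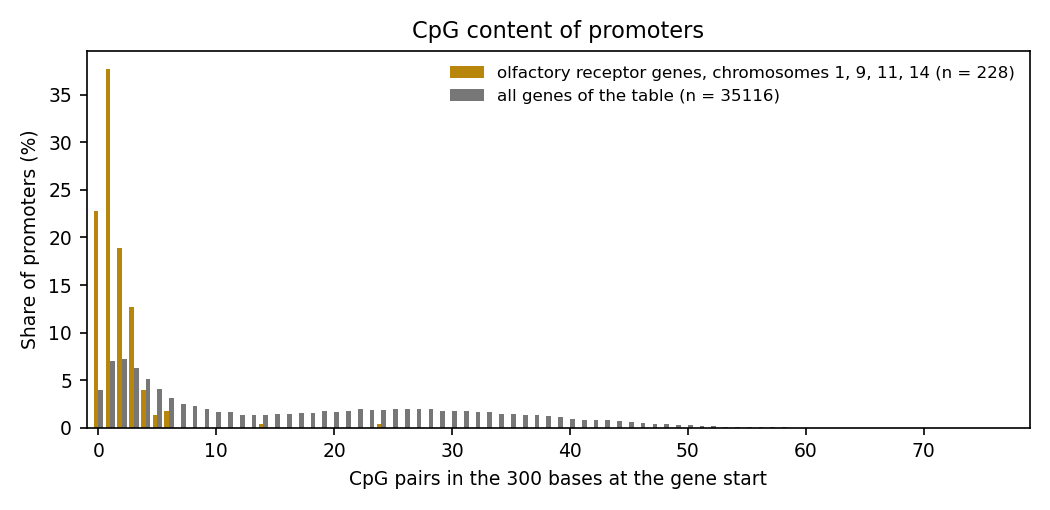
Share of promoters (y axis, %) by number of CpG pairs in the 300 bases at the gene start (x axis), for the 228 olfactory receptor genes of chromosomes 1, 9, 11 and 14 and for all 35116 promoters of the RefSeq table. The receptor bars stand at 0 to 6 pairs, apart from 2 genes at 14 and 24 pairs, while the bars of all promoters spread out to 77.

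Both lists held fewer peaks in the tracts than elsewhere on the same chromosomes, and neither was empty there. The knockout list had 2.34 peaks per Mb in the tracts (exact Poisson 95% interval 1.24 to 3.998) and 9.11 per Mb in the rest of chromosomes 1, 9, 11 and 14, measured from the first to the last peak of either list. That is a ratio of 0.257 (exact binomial interval 0.137 to 0.439), or 13 peaks where the rate of the rest would give 50.7. The control list had 4.86 peaks per Mb (3.20 to 7.07) in the tracts and 13.2 per Mb in the rest, a ratio of 0.367 (0.242 to 0.535), or 27 peaks where the rate of the rest would give 73.5. The intervals of both ratios lay below 1 and overlapped each other. They treat each peak as independent, whereas 17 of the 27 control peaks lay within 10 kb of another control peak and none of the 13 knockout peaks lay that close to another knockout peak. How often peaks lie so close in each whole list was not computed, so these counts are not set apart from the lists.

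Tags per Mb were also lower in the tracts in both lists, and here the control ratio was the smaller. The knockout peaks of the tracts held 7118 tags, or 1280.2 per Mb against 5263 per Mb in the rest, a ratio of 0.243. The control peaks held 6228 tags, or 1120.1 per Mb against 7349.5 per Mb, a ratio of 0.152. The knockout ratio depended on the 1q44 tract. With this tract left out, and chromosome 1 left out of the rest as well, it was 0.120 against 0.132 in the control list. The control ratio depended on the 11p15 tract, without which it was 0.0857, against 0.287 in the knockout list. The covered length was 5770 bp in the knockout list, 0.104% of the tracts against 0.415% of the rest, and 79022 bp in the control list, 1.42% against 5.51%. Although the peaks covered so different a length, the covered share was about equally lower in both lists, 4.001 times in the knockout and 3.88 times in the control.

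As a share of its own list, little lay in the tracts. They make up 0.206% of the effective genome that the peak caller assumed, and held 0.0551% of the knockout peaks (Clopper-Pearson exact interval 0.0293 to 0.0942%) beside 0.0736% of the control peaks (0.0485 to 0.107%). Of the tags in peaks, 0.0535% of the knockout and 0.0361% of the control tags lay there. Of all tags of the immunoprecipitate it was 0.0532% of the knockout and 0.0224% of the control tags, as 0.627% of the knockout and 37.9% of the control tags lay outside peaks. Tags between peaks are not listed by position. Averaged over the effective genome outside peaks, they amounted to 31.2 per Mb in the knockout library and 4105 per Mb in the control library. The control figure is above the 1120.1 tags per Mb that control peaks contributed in the tracts, and the knockout figure is far below the 1280.2 tags per Mb that knockout peaks contributed. Knockout tags at the same position were counted more than once, and how far copies enter these figures was not tested. The figures are therefore not read as the background of each genotype.

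**Figure D2:**
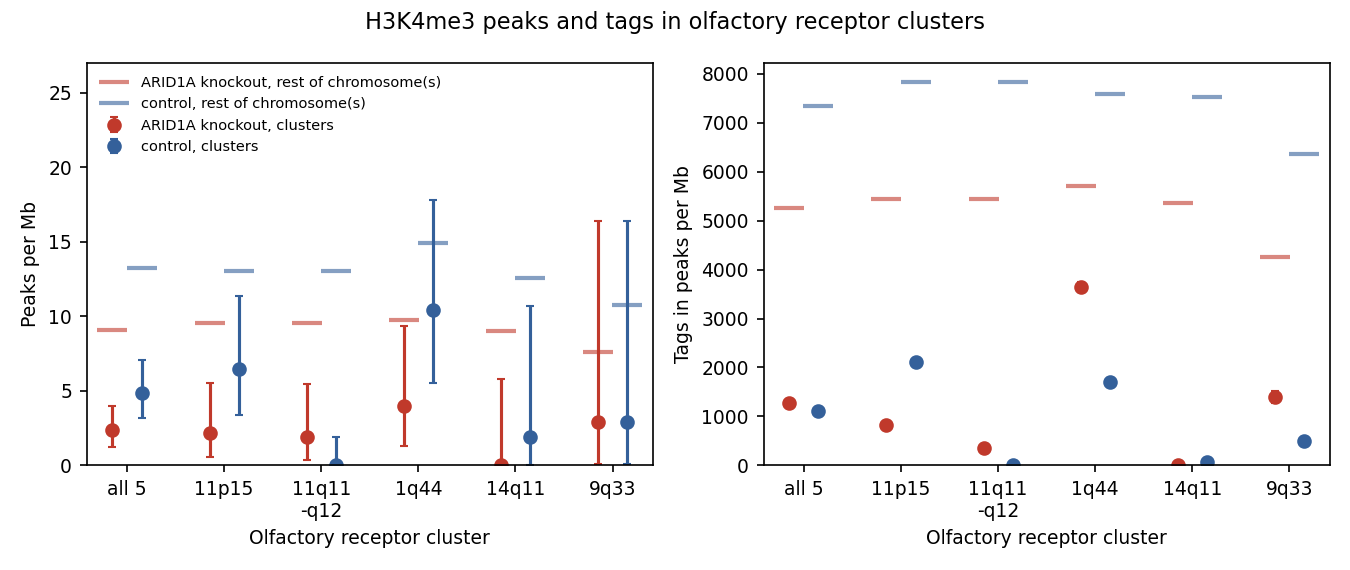
Peaks per Mb (left) and tags in peaks per Mb (right) for the 5 tracts together and one by one. Points with bars are the tracts with exact Poisson 95% intervals (for a count of 0, up to 3 counts), horizontal dashes the rest of the same chromosome or chromosomes, knockout in red left of control in blue. Every tract point lies below its own dash, and the highest tag rate of a tract is the knockout value at 1q44, 3638 tags per Mb.

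In both lists the 1q44 tract held the most peaks and the 11p15 tract came next, while 11q11-q12 held peaks of the knockout list alone and 14q11 a peak of the control list alone. At 11p15 there were 4 knockout peaks with 1513 tags and 12 control peaks with 3891 tags. At 11q11-q12, which lies next to the centromere, there were 3 knockout peaks with 583 tags and no control peak over 1.6 Mb, where 20.9 control peaks would match the rate of the rest of the chromosome. A count of 0, taken to allow up to 3 peaks, allows up to 1.88 control peaks per Mb there. At 1q44 there were 5 knockout peaks with 4548 tags and 13 control peaks with 2133 tags. The 14q11 tract had no knockout peak, which allows up to 5.77 per Mb, and 1 control peak with 34 tags. The 9q33 tract had 1 knockout peak with 474 tags and 1 control peak with 170 tags. Per Mb, the ratio of the tract to the rest of its own chromosome ran from 0 at 14q11 to 0.409 at 1q44 in the knockout list, and from 0 at 11q11-q12 to 0.697 (0.371 to 1.19) at 1q44 in the control list. The 1q44 control interval reached 1, as did the intervals of both lists at 9q33, the shortest tract.

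**Figure D3:**
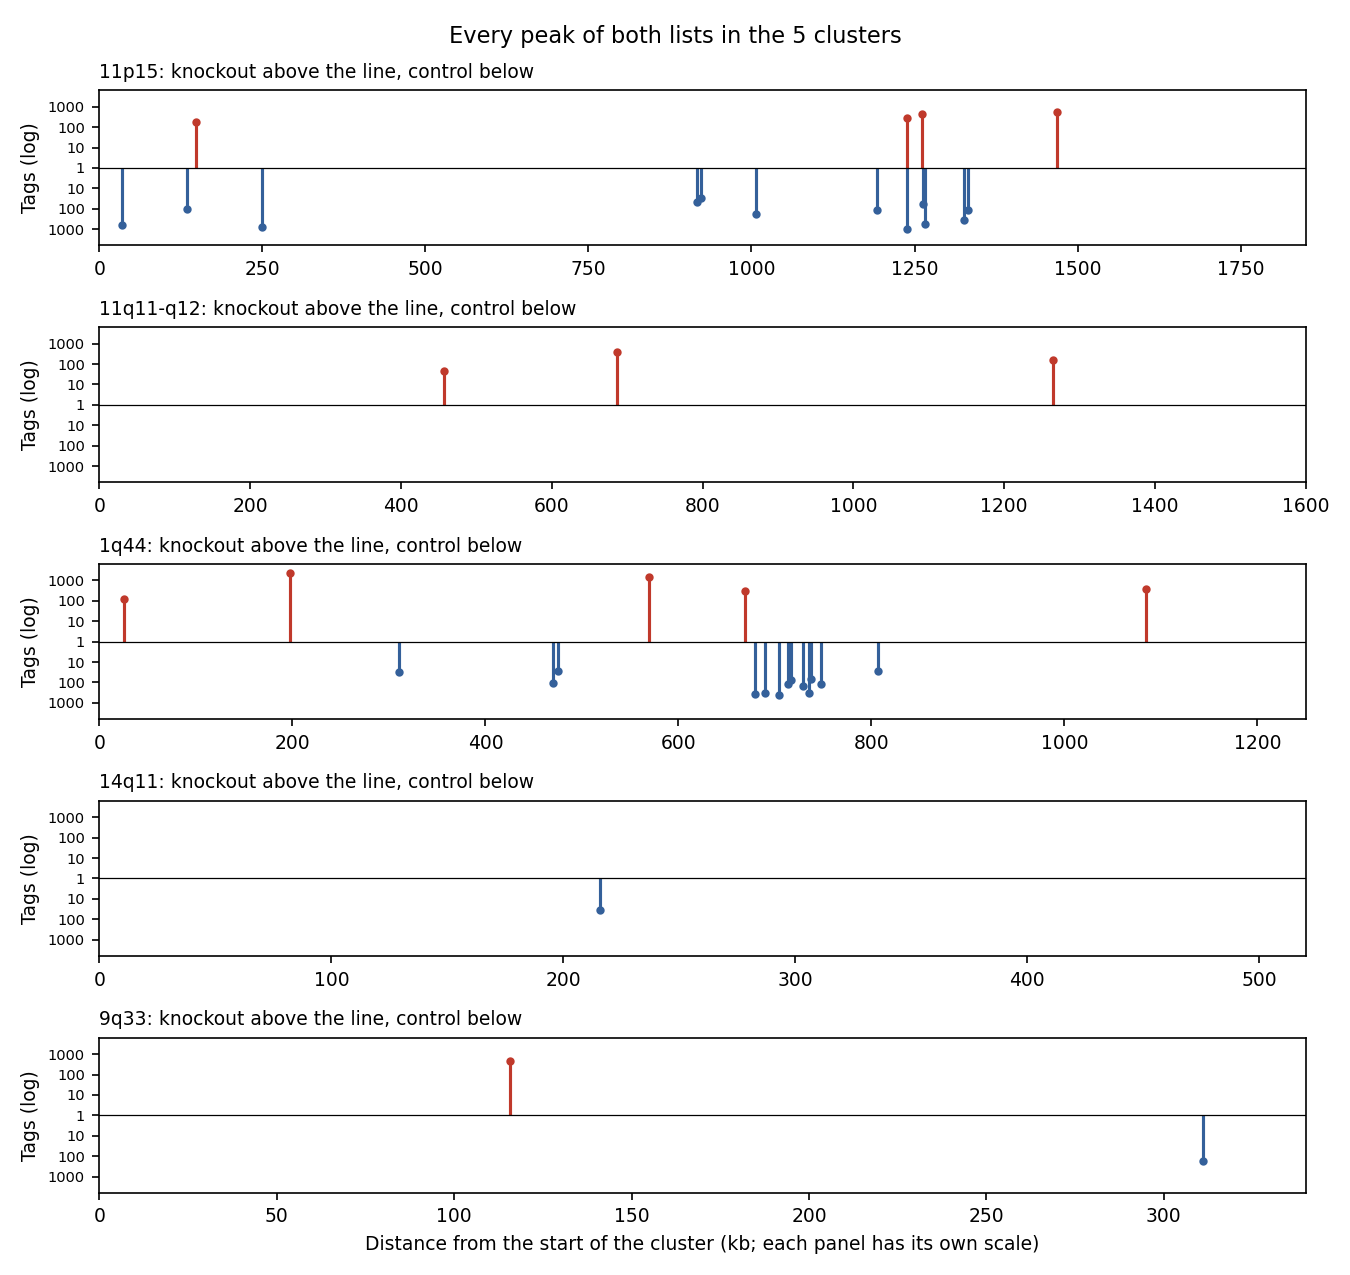
Every peak of both lists in each tract, by its distance from the start of the tract (x axis, kb, a scale of its own per panel) and its tags (y axis, log scale, from 1 at the line outward), knockout above the line and control below. Knockout peaks stand singly, and 9 of the 13 control peaks of 1q44 stand side by side in 70.8 kb.

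The 4 control peaks with the most tags of all the tracts were at 11p15. The first of them, from 5616074 to 5621702, was 5629 bp wide with 983 tags (exact Poisson interval 923 to 1046) and a false discovery rate (FDR) of 0.07%, and its tag count stood at the 83.5th percentile of the control list. Next came 762 tags between 4627081 and 4632484, 598 tags between 4411936 and 4415929, and 546 tags between 5643751 and 5648496. Another peak of this tract held 368 tags between 5704357 and 5707316, fewer than the 396 and 371 tags of the strongest at 1q44. These 5 lay at an FDR of 0.15% or less, as called from the 1 control library. Whether the mark is present there was not tested in further libraries. The other 7 control peaks of the tract had 28 to 177 tags. Between 4632484 and 5294961 the control list had no peak over 662 kb. The 4 knockout peaks here held 184 tags between 4528715 and 4529014, 275 tags between 5617781 and 5618080, 469 tags between 5641206 and 5642123, and 585 tags between 5847652 and 5848105. The last and strongest of these lay 134743 bp from any control peak. The longest gap without a knockout peak was 1089 kb.

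At 1q44 the lists were strong in different places. The strongest knockout peak of all the tracts, from 247797171 to 247797649, held 2306 tags (2213 to 2402) in 479 bp, which is the 98.5th percentile of the knockout list, and the nearest control peak was 112451 bp away. Its interval takes each tag as independent, although the peak held more tags than it has positions on both strands. The second strongest, from 248169335 to 248169687, held 1412 tags (1339 to 1488) in 353 bp at the 92.6th percentile, 94315 bp from any control peak. These 2 peaks carried 52.2% of all knockout tags in the tracts. The remaining knockout peaks of 1q44 held 126, 315 and 389 tags. In the control list, 9 of the 13 peaks stood between 248277655 and 248348498, with 1935 tags together. The 4 strongest of them held 396, 371, 320 and 316 tags, and the other 5 held 64 to 152. The widest control peak of the tracts was among them, from 248299999 to 248308601, at 8603 bp with 396 tags. No knockout peak lay within this stretch of 70.8 kb, and the nearest, with 315 tags, ended 8748 bp before it. Which receptor genes lie in this stretch, and whether it holds repeated sequence in which tags are hard to place, was not analysed here. The other 4 control peaks of 1q44 held 26 to 112 tags.

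In the other 3 tracts the peaks were scattered and single. At 11q11-q12 the knockout list had 46 tags between 55456561 and 55457019, the fewest of any knockout peak in the tracts, 383 tags between 55686612 and 55686911, and 154 tags between 56264998 and 56265815. They lay 1294449, 1064557 and 485653 bp from the nearest control peak. The control peak of 14q11, from 20415240 to 20416374, had 34 tags at an FDR of 28.4%. At 9q33 the knockout peak from 125345641 to 125345940 had 474 tags, and the control peak from 125539218 to 125542817 had 170 tags at an FDR of 1.61%.

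Compared within each list, peaks of the tracts held fewer tags by the median than peaks elsewhere, in the knockout and in the control list. By their medians, control peaks of the tracts were also narrower, and knockout peaks were not. By the median, knockout peaks held 383 tags in the tracts (quartiles 184 and 474) against 423 in the rest of the same chromosomes (188 and 778), and 5 of the 13 exceeded the median of their whole list. Their median width was 353 bp in the tracts and 300 bp in the rest, and their median density was 1050.0 tags per kb in the tracts and 1083 in the rest. Of the 13, 6 were exactly 300 bp wide (46.2%, 19.2 to 74.9%), which is the fragment length set in the peak calling, beside 55.0% of the whole knockout list. By the same measure, control peaks held 121 tags in the tracts (61 and 344) against 198 in the rest (86 and 798), a median width of 2448 bp against 3275 bp, and a median density of 48.9 tags per kb against 60.6. In tags, 11 of the 27 exceeded the median of their whole list. The quartile ranges overlapped in each case, and these differences were not tested. None of the 27 control peaks reached 1000 tags, which allows a share of up to 11.1%, beside 16.1% of the whole control list. Of the 27 control peaks, 6 were at least 4 kb wide (22.2%, 8.62 to 42.3%), beside 35.1% of the whole control list.

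Turning to the caller's FDR, a value of 1% or less was listed for 13 of 13 knockout peaks (75.3 to 100%), against 95.7% of the whole knockout list. For control peaks it was 12 of 27 (44.4%, 25.5 to 64.7%), against 54.6% of the whole control list. An FDR above 5% was found for 7 of the 27 control peaks (25.9%, 11.1 to 46.3%), against 22.6% of the whole list. Each share's interval included that of its whole list. The FDR was estimated by the caller separately for each library, so a low value in the knockout list does not make its peaks more certain than those of the control list.

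**Figure D4:**
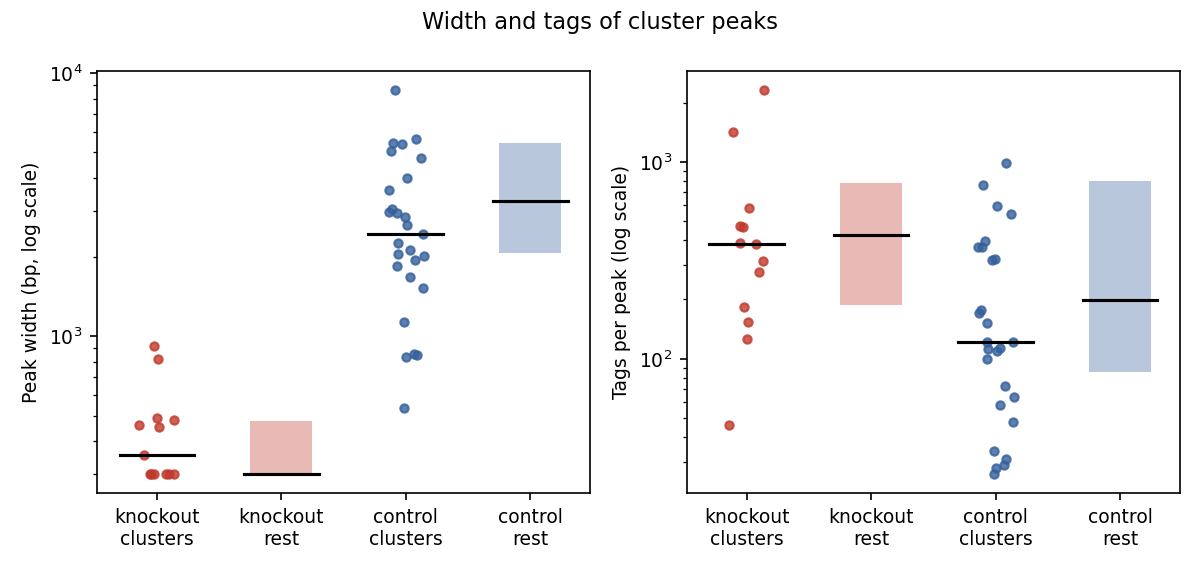
Width (left, bp) and tags (right) of each peak in the tracts as points, both on log axes, beside the quartile range of the rest of the same chromosomes as a shaded box, knockout left of control. Black lines are medians: 383 tags in the knockout tracts against 423 in the rest, and 121 tags in the control tracts against 198 in the rest.

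Few peaks of the lists met in the tracts. In the knockout list, 2 of the 13 met a control peak by 1 bp or more (15.4%, 1.92 to 45.4%), where 60.3% of the whole knockout list did. In the control list, 2 of the 27 met a knockout peak (7.41%, 0.910 to 24.3%), where 28.4% of the whole control list did. In both directions the interval lay below the share of the whole list, although it takes the control peaks, which often stood close together, as independent. With both lists limited to an FDR of 1% or less, 1 of 12 control peaks met a knockout peak (8.33%, 0.211 to 38.5%), against 46.1% of the control list so limited. Both meetings were at 11p15, where the knockout peaks lay 23126 bp apart. In the first, the 300 bp knockout peak with 275 tags lay inside the strongest control peak of the tracts, with 983 tags. In the second, the 918 bp knockout peak with 469 tags, the widest of the knockout peaks in the tracts, overlapped a control peak from 5641539 to 5643225 with 58 tags. The next control peak, with 546 tags, lay 526 bp from this one, and the 2 together held 604 tags. The tag counts are raw and the libraries differ in depth, so no direction was read from these 2 pairs. The median distance to the nearest control peak was 112 kb for the 13 knockout peaks, against 0 kb over the whole knockout list, where most peaks met one. The median distance to the nearest knockout peak was 64.8 kb for the 27 control peaks, against 15.3 kb over the whole control list. The control peaks of the tracts also had fewer tags by their median, 121 against 198 in the rest, and the part of this in the low overlap was not tested.

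Summed over the 5 tracts, peaks were denser on the sides than inside. Within 500 kb on either side of the 5 tracts there were 12.6 knockout peaks per Mb, against 2.34 inside, and 15.6 control peaks per Mb, against 4.86 inside. The 11q11-q12 tract was an exception for the knockout list, with 2 peaks per Mb on its sides and 1.88 inside, and the 500 kb before it held no peak of either list. At the other 4 tracts the sides held 13 to 20 knockout peaks per Mb, against 0 to 4 inside. Control peaks numbered 5 to 21 per Mb on the sides of the 5 tracts, against 0 to 10.4 inside, and were denser on the sides at each of them. The nearest knockout peaks outside the borders lay from 20.6 kb (at the end of 9q33, with 1695 tags) to 446 kb away, apart from that centromeric side, where the nearest was 5152 kb away. The nearest control peaks lay from 1.59 kb (before 9q33, with 288 tags) to 240 kb away, again apart from that side, at 6228 kb. Inside the borders, the outermost knockout peak lay 25.2 kb from the start of 1q44, with 126 tags, and the outermost control peak 27.2 kb from the end of 9q33, with 170 tags. In windows of 100 kb, 42 of the 54 in the tracts held no knockout peak (77.8%, 64.4 to 88.0%), against 56.4% of 6072 windows in the rest. For control peaks it was 40 of 54 (74.1%, 60.3 to 85.0%), against 46.4%.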

How the data were processed

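The deposited peak lists came from 1 H3K4me3 immunoprecipitate (IP) per genotype, grouped by title. Reads were aligned to hg19 coordinates, and the tools given in the submitters' processing notes are Bowtie2 2.2.4 and MACS 1.4.3. Per the file headers, reads were adapter-trimmed and peaks were called with MACS from each IP and its own input at a p cutoff of 0.0001, scaling the larger library down, so fold enrichments were compared only within a list. The deposited tag counts are raw IP tags per peak. The deposited score is the MACS p as −log10 times 10 (its column name was lost), fold enrichment is a ratio to the local background, and the FDR is in percent. The sources used here do not say whether duplicates were removed, and copies of 1 fragment would count as separate tags. The strongest knockout peak of the tracts held 2306 tags in 479 bp, more than it has positions on both strands. Tags at the same position were therefore counted more than once in the knockout list. The highest density of a peak was 8737 tags per kb in the knockout list and 473 in the control list. How far copies enter the tag totals was not tested.

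In Python 3.11.15 (numpy 2.4.6, pandas 2.3.3, scipy 1.17.1, matplotlib 3.10.9), peaks and tags were counted per Mb, with exact 95% intervals, and a count of 0 was taken to allow 3. The mean ratio of rates was checked on simulated peaks placed at random and independently, assigned by their middle. Overlap counts were checked against bedtools 2.31.1. Whether the intervals hold for peaks that stand close together was not checked. No p-value was computed. The tracts, lists and rules were chosen with earlier results of these data known. Named peaks were the 10 with the most tags, the strongest of each tract, the 3 widest, those meeting the other list and the nearest outside each border. Peaks described beyond this rule, among them the run of 9 at 1q44, were chosen after their values were seen. Alternatives were other thresholds, borders and lengths of the rest. Sequences are from RefSeq, and no genome sequence of the peaks was used.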

Additional observations from a re-analysis of the deposited data

How the results depend on the processing

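Of 64 alternative values, 43 stayed within the counting interval of the reported value. No ratio among them crossed 1, and the rest were shares, to which this does not apply. Every peak lay wholly inside its tract. Assigning peaks by their middle, or tags by the length inside, could therefore only return the reported ratio, and those values are counted among the 43. The ratios of peaks per Mb, 0.257 in the knockout and 0.367 in the control list as reported, stayed within their intervals throughout, at 0.214 to 0.357 and 0.269 to 0.516. Of these, counting peaks within 10 kb as 1 (0.357 and 0.314) and limiting the FDR to 5% were chosen after seeing the data. The ratios of tags per Mb left their narrow counting intervals more often, at 0.120 to 0.314 in the knockout and 0.0857 to 0.214 in the control list. The knockout ratio, 0.243 as reported, was 0.212 without empty stretches of 1 Mb or more in the rest, 0.291 with 100 kb taken off each tract end, 0.296 against all other chromosomes, 0.264 with only peaks wider than 300 bp, 0.164 without its strongest peak (added after seeing the data), and 0.287, 0.314, 0.120, 0.269 and 0.229 without 11p15, 11q11-q12, 1q44, 14q11 and 9q33. The control ratio, 0.152 as reported, was 0.133 without empty stretches, 0.163 with trimmed ends, 0.133 at an FDR of 1% or less, 0.205 against all other chromosomes, 0.128 without its strongest peak, and 0.0857, 0.214, 0.132 and 0.168 without 11p15, 11q11-q12, 1q44 and 14q11. Leaving out 1q44, 14q11 or 9q33 also took chromosome 1, 14 or 9 out of the rest. Windows of 50 kb were empty in 88.2% of cases in the knockout and 85.5% in the control list, by construction more often than windows of 100 kb. What caused the other shifts was not tested. No paired analysis was possible because each genotype has 1 IP library. Single tracts rest on 0 to 13 peaks per list, and how depth bears on these counts was not tested.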
